A study of Mus musculus with 6 samples.

Results

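The genes of glycolysis and gluconeogenesis were examined in RAW264.7 cells, a mouse macrophage line, after knockdown of Trem2, a phagocytic receptor of macrophages. The members were the genes that the deposited annotation assigns to the KEGG pathway Glycolysis / Gluconeogenesis and names by symbol, 64 of the 56092 gene symbols in the table. Both groups were stable lines made with a lentiviral GFP vector and puromycin selection, carrying either a control shRNA (shNC, n = 3 libraries) or an shRNA against Trem2 (shTrem2, n = 3). All cells first received IL-4 (20 ng/mL, 24 hours) for polarization and were then cultured for 24 hours with debris of TCMK-1 cells, a mouse renal tubular epithelial line. There was no library without IL-4 or without debris. The sources do not say which of the shRNAs against Trem2 was sequenced, and the labels name a single knockdown group, so a difference between the lines as such cannot be told apart from the knockdown. Nothing states that replicates were separate cultures, and the p-values therefore measure the spread between these libraries, which may be technical.

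Glycolysis splits glucose into pyruvate through a fixed chain of enzymes, and lactate dehydrogenase then reduces pyruvate to lactate and restores the NAD+ that the chain consumes. Several steps have isoenzymes from separate genes that differ in regulation, and hexokinase, phosphofructokinase and pyruvate kinase are the steps at which flux is mainly controlled. Macrophages raise glycolysis on inflammatory activation, whereas IL-4-polarized macrophages also rely on oxidative metabolism. Gluconeogenesis runs the chain backwards and needs enzymes that include glucose-6-phosphatase, fructose-1,6-bisphosphatase and phosphoenolpyruvate carboxykinase. Some forms of these enzymes are characteristic of liver and kidney.

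Trem2 itself was at 114, 122 and 144 CPM in the shNC libraries and at 64.7, 63.1 and 80.1 CPM in the shTrem2 libraries, where CPM is the count scaled to a common library size with TMM factors. The groups did not overlap, and the log2 fold change of shTrem2 against shNC was -0.87 (edgeR quasi-likelihood test with Benjamini-Hochberg adjustment, adjusted p = 3.38e-06). It was -2.07 with an offset for effective transcript length, so the depth of the knockdown depends on the scale. Libraries held between 15876079 and 19655185 named counts. Of 8 macrophage markers 7 were expressed at tested levels, while Mertk was not, and their summed counts made up 0.504% to 0.591% of the shNC libraries and 0.985% to 1.10% of the shTrem2 libraries. Most of that difference was Lyz2, lysozyme (log2 fold change 1.39), and without it the sums were 0.248% to 0.269% and 0.310% to 0.317%. The markers did not move one way: Csf1r and Fcgr1 were called higher (0.76 and 0.85), whereas Itgam was called lower (-0.78) and Adgre1 passed the FDR as lower (-0.56), all without overlap between groups. Of 16 tubular epithelial markers 10 had a count of 0 in every library, and the whole list summed to between 12 and 20 counts in shNC and between 44 and 56 counts in shTrem2. The difference came from Aqp1, a water channel, with 5 to 12 counts in shNC and 38 to 50 in shTrem2. The other 15 markers summed to 6 to 11 counts in shNC and 5 to 6 in shTrem2, and Lrp2, the endocytic receptor of the proximal tubule, had 5 to 8 counts in shNC and 2 to 3 in shTrem2.

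Of the 64 members, 43 were expressed highly enough to be tested, and they moved in both directions. The transcripts of pyruvate kinase, lactate dehydrogenase A, GAPDH, phosphoglycerate mutase, phosphoglucose isomerase and the main enolase rose in shTrem2, whereas hexokinase 3, neuron-type enolase and the platelet-type phosphofructokinase fell. An FDR under 0.05 in edgeR's quasi-likelihood test was reached by 29 tested members, 17 higher and 12 lower in shTrem2. Among all 13528 genes tested, 57.4% reached it, 28.8% higher and 28.6% lower. With a fold change over 1.5 in addition, the study's criterion for a DEG, 6 members were called higher and 3 lower. The same criterion called 21.8% of all genes tested, 9.46% higher and 12.4% lower, so the number of calls did not set the pathway apart. The values of the groups did not overlap for 28 members (65.1%), against 63.8% of all genes tested. The median log2 fold change was 0.09 over the 43 members and 0.00 over all genes tested.

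At a cut in abundance that was chosen after values were seen, the abundant members rose more often than they fell. Of the 14 members whose mean log2 CPM reached 8, 9 passed the FDR as higher and 2 as lower. The median log2 fold change of the 14 was 0.40. The 9 count the near-identical copies Eno1 and Eno1b separately. Akr1a1 among the 9 and Aldh2 among the 2 lie outside the glycolytic chain. Of the 644 genes at that abundance 75.5% passed, 41.9% higher and 33.5% lower, with a median of 0.05. Together the tested members took 1.58%, 1.55% and 1.56% of the named counts in the shNC libraries and 2.03%, 1.93% and 2.05% in the shTrem2 libraries, and the ranges did not overlap. Pkm alone took 0.492% to 0.509% in shNC and 0.751% to 0.832% in shTrem2. In bulk RNA a change in the number of cells of a type and a change in RNA per cell cannot be told apart. The macrophage marker sum was higher in the same libraries, mainly through Lyz2, while Itgam and Adgre1 were lower, and the part of these markers in these shares was not tested. The tubular marker sum, higher through Aqp1 alone, was at most 56 counts in a library. There was no library of TCMK-1 cells alone, so whether they express these markers is not known from these data. The part of debris RNA in these shares was not tested.

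**Figure D1:**
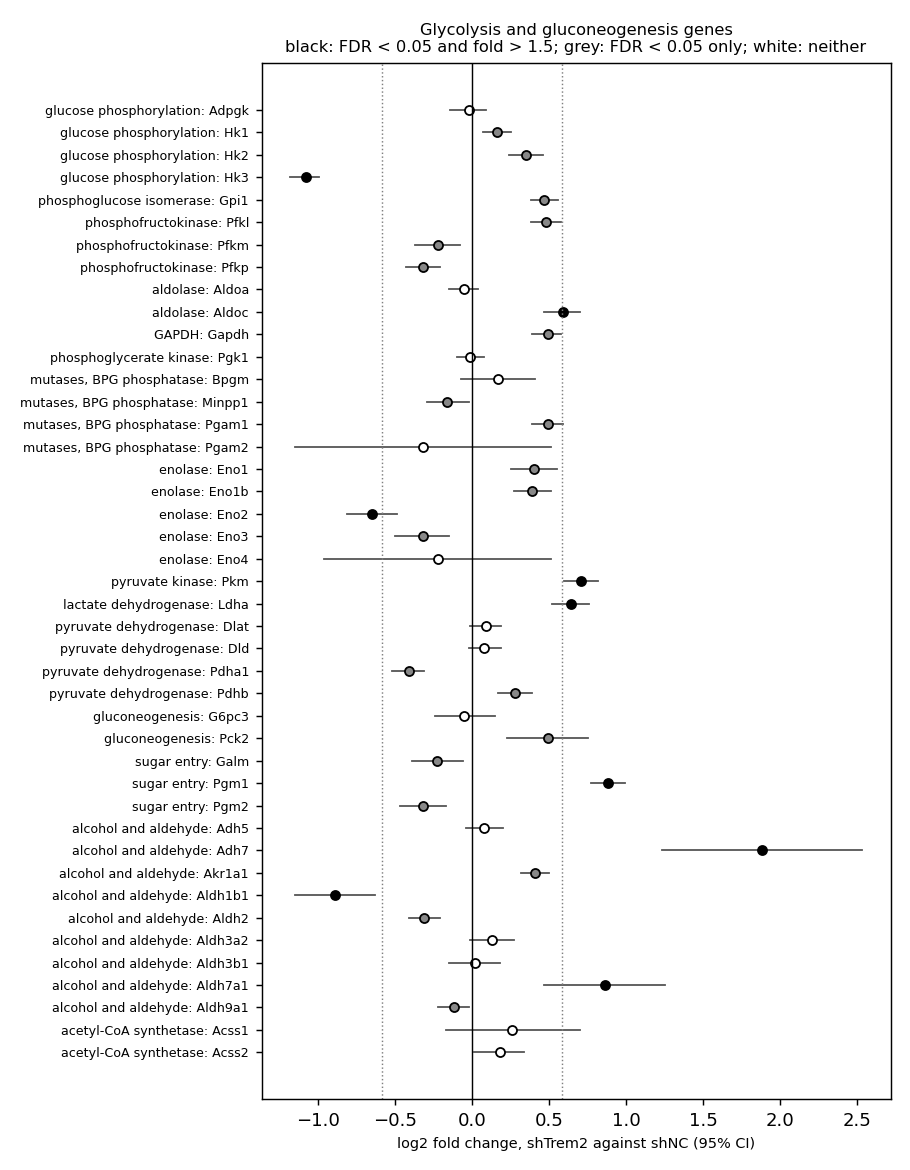
Log2 fold change of shTrem2 against shNC for the 43 tested members, grouped by the step they serve, with points for the edgeR estimate and lines for the 95% confidence interval. Black points passed FDR and a fold of 1.5 (dotted lines), grey points the FDR only, white points neither. Adh7 lies farthest to the right at 1.88 and Hk3 farthest to the left at -1.08.

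Levels can be compared between genes per unit of length, and FPKM, a fragment count corrected for length and depth, was used for this. In shNC the pathway was led by Pkm at 2399 to 2482 FPKM. Aldoa at 1092 to 1171 FPKM and Gapdh at 1084 to 1155 FPKM followed, and the ranges of these neighbours overlapped. Pgk1 at 839 to 848 FPKM came next, then the near-identical enolase genes Eno1 and Eno1b, whose summed FPKM was 698 to 741, then Ldha at 594 to 653 and Pgam1 at 464 to 469 FPKM, each without overlap with the one above. In shTrem2 the summed enolase genes were at 846 to 1015 FPKM, and this order changed in part: Gapdh at 1505 to 1576 FPKM lay above Aldoa at 1043 to 1119, and Ldha at 887 to 1011 lay above Pgk1 at 795 to 842. The hexokinase genes Hk1, Hk2 and Hk3 were all under 100 FPKM in every library.

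**Figure D2:**
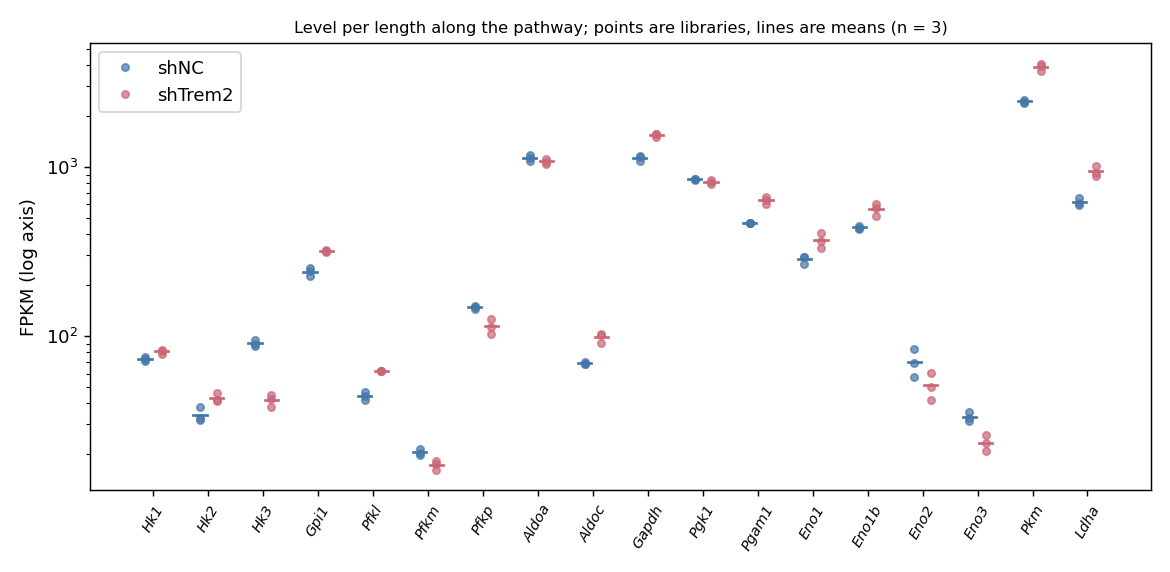
FPKM on a log axis for the genes of the chain in the order of the steps, with a point for each library and a line for the group mean (n = 3). Pkm stands highest in both groups, Hk3 drops from 87.7-94.6 to 38.3-44.8 FPKM, and the points of Aldoa overlap between groups.

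Hexokinases trap glucose in the cell as glucose-6-phosphate. Hk3, the form found mainly in myeloid cells, was at 213, 215 and 222 CPM in shNC and at 101, 104 and 101 CPM in shTrem2. Every shTrem2 library thus lay below every shNC library, and the fold was 0.472 (log2 fold change -1.08, SE 0.0444, adjusted p = 5.23e-10, edgeR quasi-likelihood test). Hk2, the inducible form, was at 138, 139 and 141 CPM in shNC and at 186, 166 and 180 CPM in shTrem2, without overlap and with a log2 fold change of 0.35 (edgeR adjusted p = 4.95e-05). Hk1, the widely expressed form, rose less, from 289, 276 and 282 CPM to 323, 317 and 306 CPM (log2 fold change 0.16, edgeR adjusted p = 0.0063). Without the second shNC library the adjusted p of Hk1 was 0.0525. Adpgk, an ADP-dependent glucokinase, had 80.5 to 84.1 CPM in shNC and 79.0 to 85.0 CPM in shTrem2, and its log2 fold change of -0.02 had a 95% interval from -0.14 to 0.09.

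Opposite changes altered the makeup of the hexokinase step. Of the summed FPKM of Hk1, Hk2 and Hk3, Hk3 held 45.1%, 44.9% and 47.2% in shNC and 22.8%, 25.7% and 27.2% in shTrem2. Hk1 held 37.0% ± 1.38 (SD, n = 3) in shNC and 48.8% ± 1.15 in shTrem2, and Hk2 held 17.3% ± 1.63 and 26.0% ± 1.40. Hk3 was therefore the leading hexokinase in all 3 shNC libraries and Hk1 in all 3 shTrem2 libraries. None of the 3 shares overlapped between groups, and the two-sided exact permutation test gave p = 0.1 for each, the smallest value that 3 against 3 libraries allow. The summed FPKM of the 3 genes was 198 ± 2.93 in shNC and 166 ± 1.40 in shTrem2.

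Gpi1, phosphoglucose isomerase, converts glucose-6-phosphate to fructose-6-phosphate. It was at 552, 555 and 544 CPM in shNC and at 781, 758 and 752 CPM in shTrem2 (log2 fold change 0.47, SE 0.0419, edgeR adjusted p = 5.19e-07). Phosphofructokinase, the committed step, has 3 subunit genes that moved apart. Pfkl, the liver-type subunit, rose from 148, 142 and 154 CPM to 210, 204 and 205 CPM (log2 fold change 0.48, edgeR adjusted p = 1.22e-06). Pfkp, the platelet-type subunit, fell from 535, 530 and 517 CPM to 422, 451 and 393 CPM (log2 fold change -0.32, edgeR adjusted p = 1.24e-04). Pfkm, the muscle-type subunit, fell from 51.8, 54.0 and 49.8 CPM to 47.4, 45.2 and 40.9 CPM (log2 fold change -0.22, edgeR adjusted p = 0.0118). None of the 3 overlapped between groups. Per length, Pfkp held 69.6% ± 0.973 of the step in shNC and 58.8% ± 2.22 in shTrem2, and Pfkl held 20.8% ± 1.23 and 32.2% ± 1.98. Pfkp remained the leading subunit in every library, and the exact permutation p was again 0.1.

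**Figure D3:**
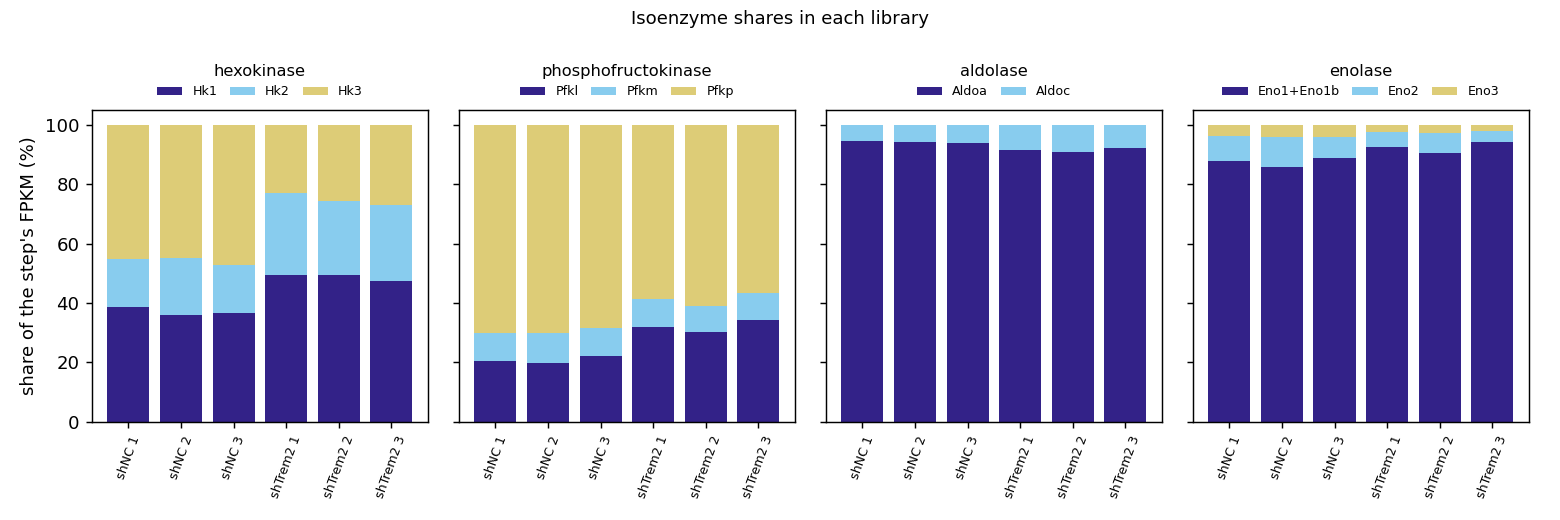
Stacked bars give the share of each isoenzyme in the summed FPKM of its step, in percent, for each of the 6 libraries. Hk3 shrinks from 44.9-47.2% to 22.8-27.2%, Pfkl grows from 19.8-22.1% to 30.4-34.3%, and aldolase is held at over 90% by Aldoa throughout.

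Aldolase cleaves fructose-1,6-bisphosphate into a pair of triose phosphates. Its main gene Aldoa was at 1287, 1255 and 1220 CPM in shNC and at 1251, 1175 and 1201 CPM in shTrem2, and the groups overlapped. The log2 fold change was -0.05 with a 95% interval from -0.15 to 0.04 (edgeR adjusted p = 0.343). The minor gene Aldoc, the brain-type aldolase, rose from 126, 136 and 138 CPM to 206, 207 and 189 CPM, without overlap (edgeR adjusted p = 5.93e-07). Its log2 fold change of 0.59 lies at the 1.5-fold limit, and Aldoc kept its place among the called genes in 8 of 18 alternative settings, with log2 fold changes between 0.50 and 0.62. Without the first shNC library, or the first or second shTrem2 library, it fell just short of the limit (0.54, 0.57 and 0.57). Its share of aldolase FPKM was 5.77% ± 0.208 in shNC and 8.36% ± 0.577 in shTrem2. Tpi1, triosephosphate isomerase, carries no KEGG pathway in the deposited annotation and is not a member. It was at 406, 407 and 428 CPM in shNC and at 635, 599 and 673 CPM in shTrem2 (log2 fold change 0.62, edgeR adjusted p = 2.37e-07).

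Gapdh oxidizes glyceraldehyde-3-phosphate and is widely used as a reference gene in qPCR. It was at 875, 864 and 854 CPM in shNC and at 1211, 1177 and 1243 CPM in shTrem2. The groups lay far apart, with a fold of 1.40 (log2 fold change 0.49, SE 0.0431, edgeR adjusted p = 5.36e-07), which is short of the 1.5-fold criterion. Pgk1, phosphoglycerate kinase, catalyses the next reaction and was at 1264, 1259 and 1264 CPM in shNC and at 1262, 1218 and 1282 CPM in shTrem2. Its groups overlapped, and its log2 fold change of -0.01 had a 95% interval from -0.10 to 0.08 (edgeR adjusted p = 0.863). Pgam1, the main phosphoglycerate mutase, rose from 671, 666 and 673 CPM to 951, 887 and 980 CPM (log2 fold change 0.49, edgeR adjusted p = 1.19e-06). Minpp1, which can dephosphorylate 2,3-bisphosphoglycerate, had 58.9 to 61.4 CPM in shNC and 50.2 to 58.0 CPM in shTrem2 (log2 fold change -0.16, edgeR adjusted p = 0.0435), and 9 of 18 alternatives put it above the threshold, among them leaving out any library other than the third of shTrem2, with an adjusted p of up to 0.174. Bpgm, bisphosphoglycerate mutase, had a log2 fold change of 0.17 (95% interval -0.07 to 0.41), and its groups overlapped.

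Enolase converts 2-phosphoglycerate to phosphoenolpyruvate. Eno1 was at 478, 439 and 488 CPM in shNC and at 619, 552 and 682 CPM in shTrem2, and its near-identical copy Eno1b was at 615, 612 and 640 CPM and at 831, 745 and 876 CPM. The groups of neither overlapped, and the log2 fold changes were 0.40 and 0.39 (edgeR adjusted p = 2.05e-04 and 4.49e-05). How reads were divided between the copies is not given in the sources used here, and the split between Eno1 and Eno1b is uncertain. Eno2, the neuron-type enolase, fell from 112, 118 and 98.6 CPM to 72.3, 74.1 and 63.1 CPM without overlap (fold 0.639, log2 fold change -0.65, edgeR adjusted p = 5.93e-06). On the FPKM scale its groups overlapped, at 57.5 to 84.0 and 42.0 to 60.7 FPKM, and limma on log2(FPKM + 1) gave an adjusted p of 0.0576. Eno3, the muscle-type enolase, fell from 31.5, 28.4 and 32.6 CPM to 25.0, 26.4 and 22.6 CPM (log2 fold change -0.32, edgeR adjusted p = 0.00359). Eno1 and Eno1b together held 87.4% ± 1.63 of the FPKM of Eno1, Eno1b, Eno2 and Eno3 in shNC and 92.5% ± 1.74 in shTrem2.

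Pkm encodes the pyruvate kinases PKM1 and PKM2, which arise from one gene by the choice between a pair of mutually exclusive exons. PKM1 is constitutively active, and PKM2, the form typical of proliferating cells and macrophages, is allosterically regulated. Pkm was at 5021, 4851 and 4966 CPM in shNC and at 8229, 7585 and 8410 CPM in shTrem2, the largest rise in counts among the members. The fold was 1.63 (log2 fold change 0.71, SE 0.0506, edgeR adjusted p = 7.08e-08). The deposited table lists 11 rows for Pkm without transcript names. Rows were assigned to the 11 transcripts of GENCODE M21 in order of identifier, which rebuilt the deposited FPKM within 0.186%. Exchanging the rows of Pkm-201 and Pkm-202 raised this error to 17.2%. For Pkm-202 the exchange with the smallest error was that with Pkm-205, at 0.468%. The rebuilt FPKM thus separated Pkm-202 from Pkm-205 only weakly, and which row is Pkm-202 rests mainly on the order of rows. In 26753 genes with a single transcript, rows followed the order of identifiers apart from 7 neighbouring pairs. With the Pkm-205 exchange Pkm-202 would be at 105 to 131 CPM in shNC and 139 to 162 CPM in shTrem2. Exchanges among minor transcripts gave errors down to 0.152%, so those transcripts were not resolved and are not described.

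The exons that tell both forms apart are shown for reference. Rows were assigned by identifier order and rebuilt FPKM, and not by these sequences. They are 167 nt long, are exon 9 of 11 in their transcripts, lie in coding sequence on the plus strand of GRCm38, and match at 61.7% of positions. Capitals mark the 64 positions at which they differ.
Pkm-202 exon of PKM1, chr9:59675029-59675195: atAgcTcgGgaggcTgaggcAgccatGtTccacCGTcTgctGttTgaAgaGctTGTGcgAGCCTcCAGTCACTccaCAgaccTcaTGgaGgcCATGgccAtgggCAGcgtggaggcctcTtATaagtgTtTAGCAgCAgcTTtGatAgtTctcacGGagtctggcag
Pkm-201 exon of PKM2, chr9:59675568-59675734: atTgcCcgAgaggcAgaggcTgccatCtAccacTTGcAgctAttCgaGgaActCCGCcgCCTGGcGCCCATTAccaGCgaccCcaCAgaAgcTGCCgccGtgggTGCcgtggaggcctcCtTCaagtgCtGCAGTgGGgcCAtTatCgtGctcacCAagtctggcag

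Pkm-201, which carries the PKM2 exon, was at 4393, 4191 and 4312 CPM in shNC and at 7039, 6497 and 7216 CPM in shTrem2. Pkm-202, which carries the PKM1 exon, was at 487, 535 and 538 CPM in shNC and at 1036, 929 and 1018 CPM in shTrem2. Both were higher in every shTrem2 library than in any shNC library, with log2 ratios of the means of 0.69 and 0.94. Pkm-201 made up 86.9% ± 0.552 of Pkm counts in shNC and 85.7% ± 0.131 in shTrem2, and Pkm-202 made up 10.5% ± 0.710 and 12.3% ± 0.248. The shares did not overlap between groups, but they differed by less than 2 percentage points and were not tested. With the Pkm-205 exchange the share of Pkm-202 would be lower in shTrem2, at 2.36% ± 0.247 in shNC and 1.84% ± 0.13 in shTrem2. Pkm-205, annotated as a retained-intron transcript, was at 105 to 131 CPM in shNC and at 139 to 162 CPM in shTrem2. Estimated counts of transcripts depend on how shared reads were divided, so these values are less direct than the gene total.

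**Figure D4:**
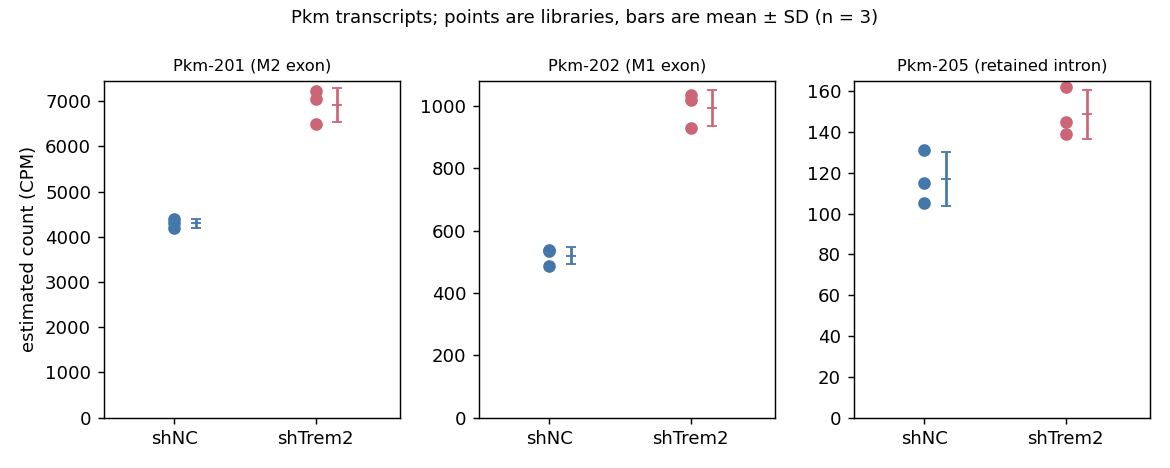
Estimated counts in CPM of the 3 most abundant Pkm transcripts, with a point for each library and bars for mean ± SD (n = 3), each panel on its own linear axis from 0. Pkm-201 goes from 4299 ± 102 to 6918 ± 375 CPM and Pkm-202 from 520 ± 28.2 to 994 ± 57.2 CPM.

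Ldha, the lactate dehydrogenase subunit that favours lactate formation, was at 758, 738 and 813 CPM in shNC and at 1188, 1136 and 1282 CPM in shTrem2. The groups did not overlap, and the fold was 1.56 (log2 fold change 0.64, SE 0.0546, edgeR adjusted p = 3.59e-07). Ldhb, the other common subunit, carries no KEGG pathway in the annotation and was under the limit for testing, with no count in 5 of the 6 libraries. Ldhc and Ldhal6b were untested as well, so lactate dehydrogenase transcripts in these cells came almost entirely from Ldha. Several of the abundant enzymes, Gapdh among them, have processed pseudogenes, and how reads that match several places were treated is not given in the sources used here.

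The pyruvate dehydrogenase complex, which carries pyruvate into the mitochondrial acetyl-CoA pool, had subunits that moved apart. Pdha1, the alpha subunit of its E1 component, fell from 143, 148 and 151 CPM to 109, 115 and 107 CPM (log2 fold change -0.41, edgeR adjusted p = 6.33e-06). Pdhb, the beta subunit of the same component, rose from 141, 136 and 149 CPM to 172, 180 and 165 CPM (log2 fold change 0.28, edgeR adjusted p = 3.57e-04). Neither overlapped between groups. Dlat and Dld, the E2 and E3 components, had log2 fold changes of 0.09 and 0.08, with 95% intervals from -0.01 to 0.19 and from -0.02 to 0.19.

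Of the 7 gluconeogenesis members 2 were tested. Pck2, the mitochondrial phosphoenolpyruvate carboxykinase, was at 113, 117 and 124 CPM in shNC and at 174, 200 and 124 CPM in shTrem2. The third shTrem2 library lay within the shNC range, and the log2 fold change of 0.49 (SE 0.122, edgeR adjusted p = 0.00356) came from the other two. Without that library the log2 fold change was 0.65, past the 1.5-fold limit. On the FPKM scale limma gave an adjusted p of 0.0884. G6pc3, the widely expressed glucose-6-phosphatase, was at 25.9 to 29.5 CPM in shNC and at 23.1 to 28.8 CPM in shTrem2 (log2 fold change -0.05, 95% interval -0.24 to 0.15). The liver-type and kidney-type genes G6pc1 and Pck1, and also G6pc2 and Fbp2, had a count of 0 in every library. Fbp1, fructose-1,6-bisphosphatase, had at most 6 counts in a library. For a gene with no count the upper limit of 3 counts amounts to 0.153 to 0.189 CPM at these depths, for counting error only.

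Across the pathway 21 members were not tested, 9 of them at 0 in all 6 libraries. They include tissue-restricted isoenzymes such as Pklr, the pyruvate kinase of liver and red cells, and the testis forms Pgk2, Gapdhs, Ldhc and Pdha2.

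Phosphoglucomutase links glycogen and galactose to glucose-6-phosphate. Pgm1, its main gene, was at 64.6, 64.3 and 66.0 CPM in shNC and at 123, 122 and 114 CPM in shTrem2. It had the largest rise in fold among the members above 10 CPM, 1.84 (log2 fold change 0.88, SE 0.0515, edgeR adjusted p = 1.15e-08). Pgm2, which acts mainly on pentose phosphates, fell from 46.7, 42.5 and 40.5 CPM to 35.2, 36.0 and 32.5 CPM (log2 fold change -0.32, edgeR adjusted p = 0.00147). Galm, the aldose mutarotase, was at 34.5 to 39.2 CPM in shNC and at 28.9 to 33.5 CPM in shTrem2 (log2 fold change -0.23, edgeR adjusted p = 0.0195). Its adjusted p was 0.0884 without the second shNC library and 0.0699 without the third shTrem2 library.

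The pathway map also holds alcohol and aldehyde dehydrogenases, of which 9 of 14 were tested. The NADPH-dependent aldehyde reductase Akr1a1, the most abundant of them by CPM, rose from 444, 425 and 429 CPM to 585, 582 and 560 CPM (log2 fold change 0.41, edgeR adjusted p = 2.53e-06). Aldh2, the mitochondrial acetaldehyde dehydrogenase, fell from 402, 413 and 416 CPM to 339, 344 and 310 CPM (log2 fold change -0.31, edgeR adjusted p = 9.63e-05). Aldh1b1, its mitochondrial relative, fell from 13.3, 11.8 and 12.3 CPM to 6.67, 7.20 and 6.28 CPM (fold 0.540, log2 fold change -0.89, edgeR adjusted p = 2.53e-05). All 3 were without overlap between groups.

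The largest fold of any member was that of Adh7, an alcohol dehydrogenase that also oxidizes retinol, and it rests on low counts. Adh7 was at 0.745, 1.27 and 1.04 CPM in shNC and at 4.53, 4.38 and 2.52 CPM in shTrem2, without overlap (log2 fold change 1.88, SE 0.302, edgeR adjusted p = 1.21e-04). Aldh7a1, which acts in lysine breakdown, was at 5.28, 4.43 and 4.50 CPM in shNC and at 7.09, 7.72 and 10.9 CPM in shTrem2 (log2 fold change 0.86, edgeR adjusted p = 0.00106). Its FPKM overlapped between groups, at 2.35 to 4.32 and 3.38 to 10.9, and the adjusted p was 0.115 with the effective length offset. Aldh9a1 had a log2 fold change of -0.12 (edgeR adjusted p = 0.0373), and 8 of 18 alternatives put it above the threshold, among them leaving out any library other than the second of shNC, with an adjusted p of up to 0.096. Adh5, Aldh3a2 and Aldh3b1 did not pass, with log2 fold changes of 0.08, 0.13 and 0.02, nor did the acetyl-CoA synthetases Acss1 and Acss2, at 0.26 and 0.18. Acss2 reached an adjusted p of 0.0354 without the second shNC library.

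Many glycolytic promoters hold the hypoxia response element, whose core ACGTG is bound by HIF-1 and also occurs within the E-box CACGTG bound by Myc and Usf proteins. The core was searched on either strand in RefSeq promoter windows of GRCm38.p6, all of the same length, which matched 39 of the 43 tested members. It was present for 20 of the 39 members (51.3%), for 29.6% of the 9600 matched genes tested and for 21.8% of all 27025 genes with a window. Among members with FDR under 0.05, it was present for 10 of 15 matched genes that rose (66.7%) and for 4 of 10 that fell (40.0%), against 29.5% and 30.2% of all matched genes that rose and fell. Counted by window, since some genes have several starts, the shares of the members were closer, 10 of 21 windows (47.6%) and 5 of 13 (38.5%). Over all genes that rose and fell the shares by window were 25.3% and 25.8%. Some windows of the same gene overlap, so the same bases are in part counted more than once. A match is a run of letters and not a bound site. The stretches around the core are shown for a gene that rose (Ldha), one that did not pass (Pgk1) and one that fell (Hk3), since all 3 hold it, with the letters of the core, or of the E-box around it, in capitals and positions counted from the annotated start.
Ldha, chr7:46845704-46845803, plus strand, -100 to -1: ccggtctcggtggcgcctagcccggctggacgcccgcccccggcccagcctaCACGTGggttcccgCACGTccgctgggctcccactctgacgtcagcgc
Pgk1, chrX:106186930-106186999, plus strand, -170 to -101: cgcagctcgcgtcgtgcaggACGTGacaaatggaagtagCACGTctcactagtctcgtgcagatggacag
Hk3, chr13:55021506-55021575, minus strand, -190 to -121: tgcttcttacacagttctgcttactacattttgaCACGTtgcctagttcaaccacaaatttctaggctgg

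The lists of genes around the pathway went in different directions. Their counts are of genes with FDR under 0.05, which over all genes tested took in 28.8% as higher and 28.6% as lower, and no list was tested as a whole. Of 6 tested glucose transporters 5 fell and none rose. Slc2a6, a transporter induced in activated macrophages, fell from 165, 163 and 165 CPM to 108, 105 and 110 CPM (log2 fold change -0.61, edgeR adjusted p = 9.07e-08). Slc2a9, the urate transporter of this family, fell from 32.0, 32.2 and 35.0 CPM to 22.6, 20.5 and 21.0 CPM (log2 fold change -0.63), and Slc2a4, the insulin-responsive form, was under 2 CPM in every library (log2 fold change -1.59). Slc2a1, the main glucose importer of macrophages, did not pass, at 153 to 161 CPM in shNC and 155 to 163 CPM in shTrem2 (log2 fold change 0.02). Of 6 genes of lactate and pyruvate transport 1 fell, Slc16a1, a monocarboxylate transporter (log2 fold change -0.24), while Slc16a3, the lactate exporter of glycolytic cells, had -0.07.

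Fructose-2,6-bisphosphate activates phosphofructokinase, and of the 5 genes that set its level 1 rose and 2 fell. Pfkfb3, the kinase that makes it in activated macrophages, fell from 76.7, 75.6 and 64.5 CPM to 49.2, 54.5 and 47.0 CPM (log2 fold change -0.52, edgeR adjusted p = 4.98e-05). Tigar, which removes it, had a log2 fold change of -0.30. Pfkfb1 was called higher at under 3 CPM (log2 fold change 0.82, edgeR adjusted p = 0.0206), and lost its significance without the first shNC library (0.0818), the first shTrem2 library (0.0888) or the third (0.0619). Among 7 tested regulators and partners of pyruvate dehydrogenase 4 rose and 1 fell. The inhibitory kinases Pdk1 and Pdk3 both had log2 fold changes of 0.45, whereas Pdk2 fell from 9.75, 11.0 and 9.83 CPM to 5.32, 5.43 and 4.22 CPM (log2 fold change -1.03, edgeR adjusted p = 3.35e-05). Pdpr, a regulatory subunit of the phosphatase that activates the complex, rose from 19.9, 24.0 and 26.9 CPM to 43.0, 44.3 and 38.4 CPM (log2 fold change 0.82, edgeR adjusted p = 6.84e-06).

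Branches that leave glycolysis held genes that rose and genes that did not. In the pentose phosphate pathway, which makes NADPH, 5 of 7 genes rose and 2 fell. Pgd, its second NADPH-forming enzyme, rose from 183, 193 and 199 CPM to 314, 291 and 361 CPM (log2 fold change 0.75, edgeR adjusted p = 6.29e-07). In the serine and glycine branch 4 of 5 genes rose. Psat1, which makes phosphoserine, rose from 421, 390 and 410 CPM to 633, 652 and 577 CPM (log2 fold change 0.61), and Shmt2, the mitochondrial serine hydroxymethyltransferase, rose from 271, 252 and 269 CPM to 484, 506 and 410 CPM (log2 fold change 0.82). Phgdh, the first enzyme of that branch, did not pass (log2 fold change -0.08, edgeR adjusted p = 0.370). In glycogen metabolism 3 of 6 tested genes rose, among them Gys1 and Gbe1 (log2 fold changes 0.30 and 0.51), and none fell.

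Of 9 tested transcription regulators of glycolysis 3 passed an FDR of 0.05 as higher and 3 as lower, against 28.8% and 28.6% of all genes tested. Hif1a, the oxygen-regulated subunit of HIF-1, rose from 264, 277 and 268 CPM to 379, 398 and 347 CPM (log2 fold change 0.47, edgeR adjusted p = 4.48e-06). Arnt, its constant partner, fell from 106, 101 and 99.7 CPM to 77.2, 83.1 and 80.9 CPM (log2 fold change -0.34). Egln1 (0.33) and Hif1an (0.27) also rose, and Vhl (-0.27) and Mlxip (-0.21) also fell. Myc did not pass (log2 fold change 0.43, edgeR adjusted p = 0.104). Of 16 tested HIF-1 targets outside glycolysis 7 rose and 5 fell, so this list went both ways as well. The mitophagy receptor Bnip3 (0.65), the mitochondrial protein Higd1a (0.82) and the collagen prolyl hydroxylase P4ha2 were called higher, the last from 1 to 2 counts per shNC library to 13 to 34 per shTrem2 library. The oxidoreductase Ero1a (-0.83), the carbonic anhydrase Car9 (-0.88) and the peptide hormone Adm (-0.71) were called lower, all as log2 fold changes, and Adm overlapped between groups. The adjusted p of Adm was 0.108 without the first shNC library and 0.0658 without the third shTrem2 library.

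**Figure D5:**
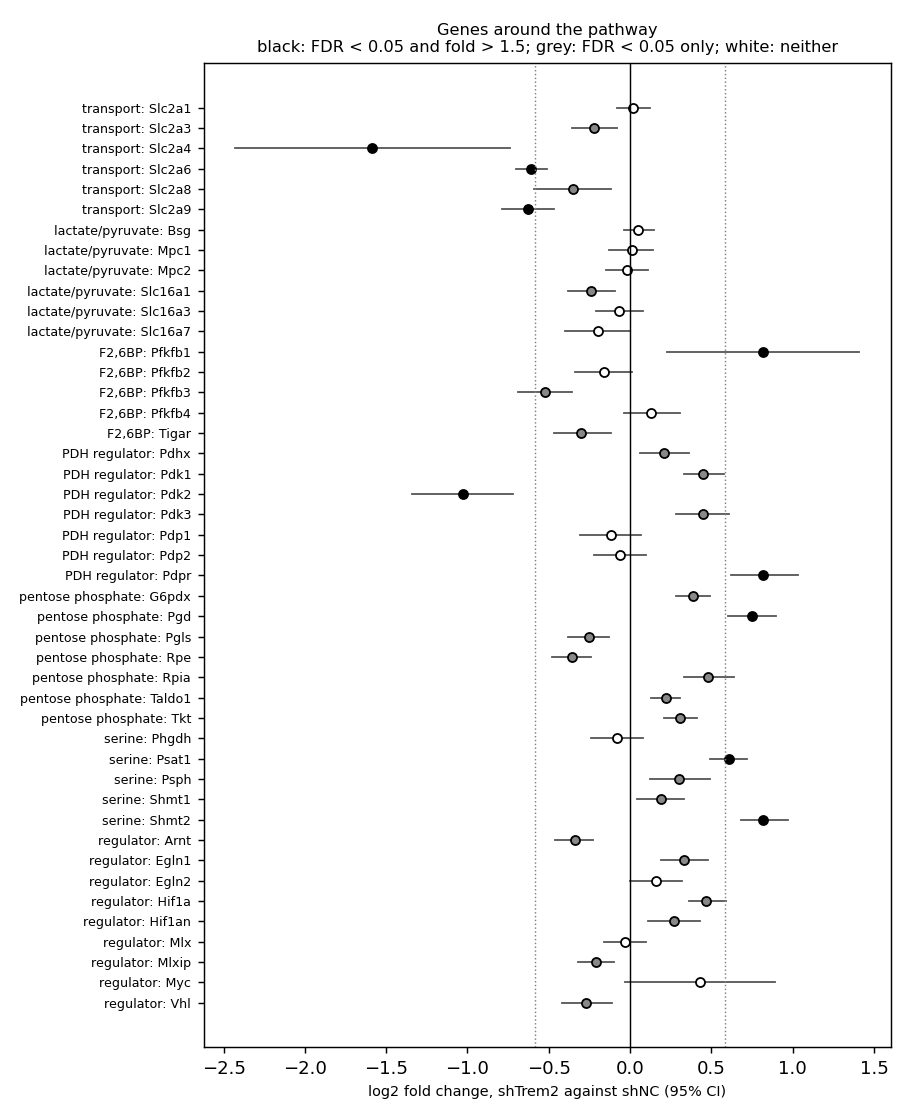
Log2 fold change of shTrem2 against shNC, with 95% confidence intervals, for tested genes of transport, pathway regulation and the branches that leave glycolysis. Shading is by test, as black for FDR under 0.05 with a fold over 1.5, grey for FDR under 0.05 only and white for neither. Glucose transporters lie at or left of 0 apart from Slc2a1 at 0.02, and 4 of 5 serine branch genes lie to the right.

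Gapdh and Pgk1 also belong to a list of 15 common qPCR reference genes. Of the 15, Gapdh included, 9 passed an FDR of 0.05 as higher and 2 as lower. Over all genes tested, 28.8% passed as higher and 28.6% as lower. Among the 644 genes whose mean log2 CPM reached 8, these shares were 41.9% and 33.5%. Most of the 15 reached that abundance, and the list was not tested as a whole. Actb (log2 fold change 0.81), Ppia (0.90) and Ywhaz (0.60) were called higher. Rplp0 at 0.00 and Pgk1 at -0.01 had the smallest differences of the 15.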

How the data were processed

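Libraries were grouped by the shRNA in their labels. The submitters' processing notes name fastp, HISAT2, StringTie and GRCm39, without versions. The authors deposited estimated counts per transcript row with gene symbols, of which 79.3% of nonzero values were not whole, and FPKM values per gene. The authors' group-mean columns were not used. Counts were summed per symbol and rounded. Rows without a symbol (0.908% to 1.12% of counts) were left out. CPM values used TMM-scaled library sizes.

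Differential expression was tested with edgeR 4.0.16 in R 4.3.3 (TMM, filterByExpr, glmQLFit, glmQLFTest, no covariates) over 13528 genes with Benjamini-Hochberg adjustment. A called gene had an FDR under 0.05 and a fold over 1.5. Isoenzyme shares of FPKM were compared by a two-sided exact permutation test, without Adpgk and Eno4. Alternatives were DESeq2 1.42.0, limma 3.58.1 (voom, or log2(FPKM + 1) and log2(FPKM + 0.1)), other scalings, filters and thresholds, an effective length offset (count over FPKM), a replicate block, each library left out, and, chosen after seeing the data, Eno1 and Eno1b summed.

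The members and lists were chosen with earlier results of these data known. Called members, members of the chain whose mean log2 CPM reached 3, called neighbours and Trem2 were named by rule. Other genes, and the split at a mean log2 CPM of 8, were chosen after values were seen. The values of some untested members are not reported here. Coordinates and sequences come from GENCODE M21 and RefSeq (GRCm38), not from the files' build. PCR copies are not independent molecules, so the limit for a count of 0 covers counting error only.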

Additional observations from a re-analysis of the deposited data

How the results depend on the processing

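The counts of members (29 with FDR under 0.05, 6 called higher, 3 called lower) stayed within 1.5 times in every alternative other than a fold over 2, which left 1 called higher (Adh7) and 1 called lower (Hk3). The difference in share was 8.78 percentage points in place of 11.8 for Hk1 and -4.6 in place of -2.6 for Aldoa when CPM replaced FPKM, which drops the correction for length. The alternatives were followed for 60 genes, which were the tested members, the called neighbours, Tpi1 and Trem2. Other genes named in the text, such as Hif1a, Arnt, Pfkfb3, Lyz2 and Actb, were not followed. Of 1077 values for the 60 genes under 18 alternatives, 1032 kept their direction and their side of the threshold. A further 32 lost significance, 2 gained it and 11 changed sign. Genes that changed sign were all near 0. Aldh3b1 gave -0.00 with upper quartile scaling, -0.02 with library size only, -0.03 with limma on log2(FPKM + 1) and -0.03 on log2(FPKM + 0.1), and -0.08 to 0.09 in the leave-one-out fits, below 0 without shNC replicate 1 (-0.01) or shTrem2 replicate 2. Dlat gave -0.05 with the effective length offset and -0.08 on both FPKM scales, G6pc3 gave -0.11 to 0.04 with a library left out, above 0 without shTrem2 replicate 3, and Pgk1 gave 0.01 without shTrem2 replicate 2. Over all genes, the median log2 fold change was farthest from 0 among the scalings with library size only, at -0.034.

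Groups shared replicate numbers in the labels. Deviations of same-numbered libraries from their group means correlated across 9729 genes at 0.00227, 0.0401 and -0.0086. For differently numbered libraries of the groups the correlations lay between -0.0404 and 0.0306. Noise in single genes lowers such a correlation, so it cannot decide whether the numbers paired the libraries. With the replicate block the counts were 29, 6 and 3 as before, and 2910 genes in all were called, against 2951.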
